A study of Danio rerio with 3 samples.

Results

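Photoreceptor precursors and mature rods and cones are set apart by transcription factors, and 10 such genes of the zebrafish retina were followed here: *crx*, *otx5*, *neurod1*, *nrl*, *nr2e3*, *six7*, *six6b*, *thrb*, *tbx2b* and *foxq2*. They were taken by name from the 30579 gene symbols of the deposited tables, with rows that differ only by a numbered suffix summed, and all 10 were found. Single-cell RNA sequencing was run on 3 libraries of adult retina: WT V3, P23H V3 and P23H V2, where V2 and V3 are versions of the 10X 3′ chemistry. WT fish were of the AB strain. P23H fish carried the uth4Tg transgene, which expresses rhodopsin with the P23H mutation in rods, and no other allele or treatment is given for either group. Each library pooled the retinas of 3 fish, so a condition had 1 library per chemistry and no replicate. The labels give an age of 4 to 8 months for all fish, kept at 14 h of light and 10 h of dark. The groups compared are therefore single pools of fish, and fish, library and genotype cannot be told apart.

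In the vertebrate retina, *crx* and *otx5* encode homeodomain proteins that switch on genes of photoreceptors, and *neurod1* encodes a basic helix-loop-helix protein of photoreceptor precursors. In mice, Nrl and its partner Nr2e3 direct precursors to the rod fate and hold cone genes down. In zebrafish cones, *six7* and *six6b* act on the green and blue opsin genes, *thrb* (thyroid hormone receptor beta) on the red cone fate, *foxq2* on the blue cone fate and *tbx2b* on the UV cone fate. Zebrafish keep adding rods throughout life from proliferating progenitors, so that precursors and mature photoreceptors occur in the same adult retina.

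After filtering, 13554 cells of WT V3, 15514 of P23H V3 and 4671 of P23H V2 remained, with 31904044, 31030584 and 2591315 unique molecular identifiers (UMIs, 1 per captured transcript) and medians of 1220, 1244.5 and 457 UMIs per cell. The V3 libraries shared 62 cell barcodes, and neither shared any with P23H V2. Clusters were named from marker genes, with the 10 factors left out of the clustering. Retinal progenitor cells (RPCs, which hold cell cycle genes) numbered 77, 398 and 390 in WT V3, P23H V3 and P23H V2, newly formed rods 146, 562 and 459, rods 859, 510 and 466, and cones 1749, 1161 and 440. Neurogenic progenitor cells (NPCs) numbered 334 and 489 in the V3 libraries and formed no class in P23H V2. A mixed cluster of 1172 WT V3 and 87 P23H V3 cells, whose profile was close to that of all other cells and whose top genes included *gnat1*, was kept out of every class. The marker sums of a class differed between the libraries: in newly formed rods the 6 markers of that class summed to 4833 CPM (counts per 1000000 UMIs of the class) in WT V3 and 12279 CPM in P23H V3, and the 10 rod markers to 18904 and 6779.7 CPM.

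Levels are CPM of the UMIs summed over the cells of a class, with exact 95% Poisson intervals, and ratios are P23H V3 to WT V3 on the log2 scale, with exact intervals. Both cover counting error only. A gene with at least 20 UMIs over both V3 libraries in a class was called higher or lower where the ratio was at least 1.5 and the intervals of the levels did not overlap. No test across conditions was possible with 1 library each, and the share of all genes called by the same rule is given beside the counts.

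**Figure D1:**
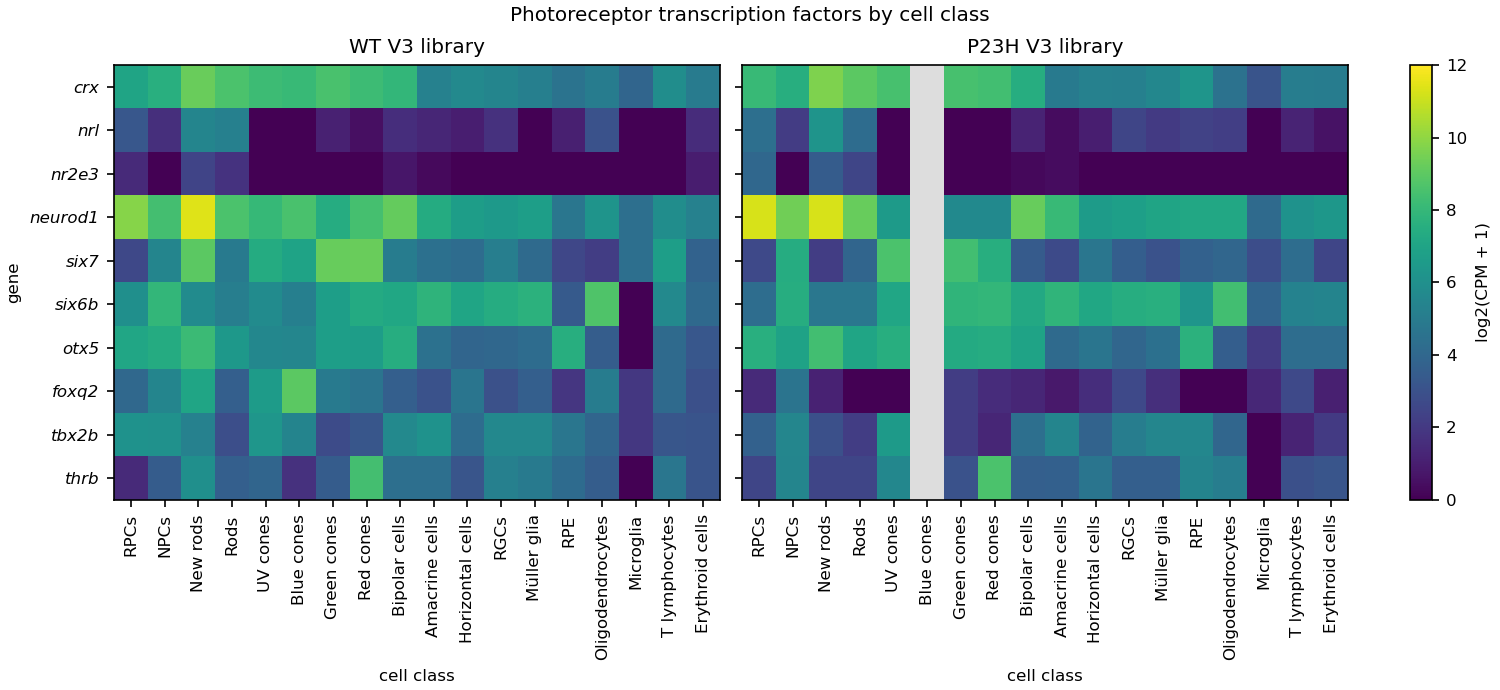
Level of each of the 10 factors (rows) in each cell class (columns) of the WT V3 and P23H V3 libraries, as log2(CPM + 1) by color, with grey where a class had under 20 cells. Unresolved cones are not drawn. Among the classes drawn, *neurod1* peaked in newly formed rods in WT V3 (2702 CPM), *foxq2* in blue cones (499.9 CPM) and *thrb* in red cones (339.7 CPM).

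Each factor had its own set of cell classes, as the map of levels by class shows. In WT V3, *crx* was highest in newly formed rods (617 CPM, 95% interval 547 to 695), then in rods (388) and green cones (373), which did not differ beyond counting error, and then in UV, red and blue cones (269.7 to 297) and bipolar cells (244). *otx5*, a relative of *crx*, was also highest in newly formed rods (293 CPM) and was next in the retinal pigmented epithelium (RPE, 182 CPM), bipolar cells (175 CPM) and NPCs (168 CPM), whose intervals overlapped. *neurod1* had 2702 CPM in newly formed rods, 894 CPM in RPCs, 567 CPM in bipolar cells and 391 CPM in rods. *nrl* and *nr2e3*, the rod pair, were found at low levels: *nrl* had 19 UMIs in newly formed rods (42.5 CPM, 25.6 to 66.4) and 45 in rods (36.1 CPM, 26.3 to 48.3), and *nr2e3* had 12 UMIs in the whole WT V3 library. The nuclear receptor gene *thrb* was highest in red cones (339.7 CPM), ahead of newly formed rods (62.6 CPM), and the other opsin classes of cones held 2.33 to 14.2 CPM. *six6b* was not a gene of photoreceptors alone: its highest WT V3 level was in oligodendrocytes (416 CPM), followed by NPCs (248 CPM), amacrine cells (222 CPM) and Müller glia (206 CPM), against 159 CPM in red cones. *tbx2b* likewise had 68.7 CPM in amacrine cells, close to the 79.3 CPM of UV cones.

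Over all cells of a library, *crx* had 151 CPM in WT V3, 184 in P23H V3 and 426 in P23H V2. *neurod1* had 282, 605 and 1023 CPM in the same order. *nrl* had 118 UMIs (3.7 CPM), 229 UMIs (7.38 CPM) and 1 UMI (0.386 CPM). *neurod1* lay above WT V3 in both P23H libraries, whereas *nrl* lay above it in P23H V3 and below it in P23H V2. P23H V2 differed from WT V3 in chemistry as well as genotype, so its levels beside those of WT V3 do not show the part of genotype. *nr2e3* had 12, 69 and 23 UMIs (0.376, 2.22 and 8.88 CPM). *six7* had 106, 51.4 and 221 CPM. *foxq2* had 2078 UMIs (65.1 CPM) in WT V3, 164 (5.29 CPM) in P23H V3 and 3 (1.16 CPM) in P23H V2, so that both P23H libraries were far below WT V3. The levels were 112, 151 and 142 CPM for *six6b*, 98.1, 99.2 and 99.6 for *otx5*, 38.3, 21.1 and 37.8 for *tbx2b*, and 44.3, 47.4 and 13.5 for *thrb*.

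Of the 10 factors, 3 were called higher in P23H V3 over all cells, *nrl* (log2 ratio 1.00), *nr2e3* (2.56) and *neurod1* (1.1), and 3 lower, *six7* (-1.04), *tbx2b* (-0.86) and *foxq2* (-3.62). By the same rule 22.3% of 18436 genes were called higher and 17.2% lower, and the median log2 ratio of all genes was 0.13. In a whole library, a different number of cells of a class and a different level within them both enter, so each factor was recomputed with one of them held. With the P23H V3 levels of every class and the WT V3 shares of UMIs, the log2 ratio of *neurod1* was 0.11, and with the WT V3 levels and the P23H V3 shares it was 0.69, beside 1.1 as counted. For *nrl* the same values were -0.00472 and 0.57. For *six7* they were -0.64 and 0.32, although *six7* was called higher within NPCs and UV cones. For *foxq2* both were below 0, -0.94 and -1.48. The class that held most UMIs of a factor also differed: for *nrl* it was rods in WT V3 (38.1% of its UMIs) and newly formed rods in P23H V3 (54.6%), and for *neurod1* it was bipolar cells (28.5%) and RPCs (39.9%).

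**Figure D2:**
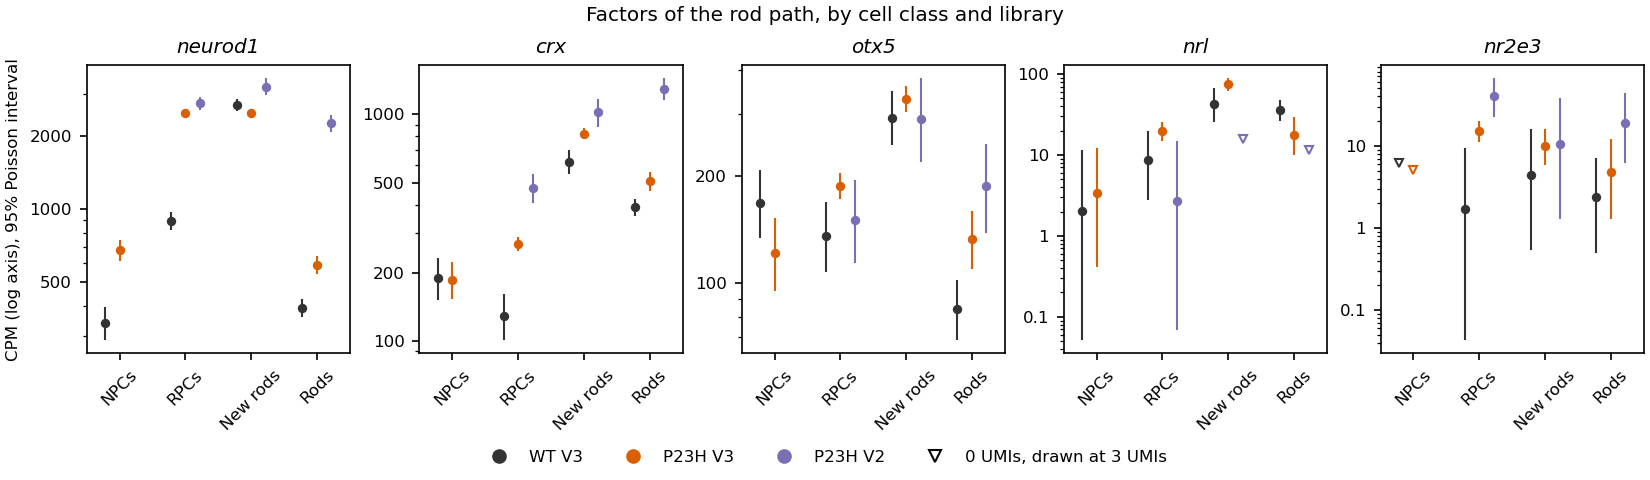
Level of *neurod1*, *crx*, *otx5*, *nrl* and *nr2e3* (CPM, log axis, with exact 95% Poisson intervals) in NPCs, RPCs, newly formed rods and rods of each library, with open triangles at the level of 3 UMIs where none was counted. In RPCs *neurod1* was at 894 CPM in WT V3 and at 2507 and 2738 CPM in the P23H libraries.

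In RPCs, the precursor factors *neurod1* and *crx* and the rod factor *nr2e3* were called higher in P23H V3. *neurod1* had 894 CPM (819 to 974) in WT V3, 2507 (2451 to 2564) in P23H V3 and 2738 (2573 to 2912) in P23H V2, a log2 ratio of 1.49 (95% interval 1.36 to 1.62) between the V3 libraries. *crx* had 128, 267 and 472 CPM in that order, with a log2 ratio of 1.06 (95% interval 0.71 to 1.42). *nr2e3* had 1, 45 and 15 UMIs (1.71, 15 and 40.3 CPM), and the interval of its log2 ratio, 3.14, was wide (95% interval 0.59 to 8.47). For these 3 factors both P23H libraries were above WT V3. Over all cells, however, P23H V2 held *crx* at 2.31, *neurod1* at 1.69 and *nr2e3* at 3.99 times the level of P23H V3. Class shares enter those ratios, as RPCs held 14.4% of all UMIs in P23H V2 and 9.62% in P23H V3. They are therefore not ratios within RPCs. P23H V2 differs from WT V3 in chemistry as well as genotype, so the parts of these cannot be told apart there. *otx5* (135, 188 and 150.3 CPM) and *nrl* (5, 59 and 1 UMIs) were not called. *six6b* and *tbx2b* lay the other way: *six6b* had 61.6, 18.8 and 26.8 CPM (log2 ratio -1.72, 95% interval -2.35 to -1.07), and *tbx2b* had 68.5, 12.4 and 16.1 CPM (log2 ratio -2.47, 95% interval -3.15 to -1.78). Thus 3 of 7 factors with enough UMIs were called higher and 2 lower, beside 8% and 8.68% of 7911 genes. The calls of *crx* and *nr2e3* were lost when only the row of each gene without a suffix was counted, and that of *six6b* when the level in blood, immune and glial cells was subtracted. Oligodendrocytes and Müller glia of WT V3 held *six6b* above its level in RPCs, so for this gene the subtraction cannot tell background from expression.

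The RPC class itself differed between the libraries. The 14 RPC markers summed to 8809.9 CPM in WT V3, 4623 in P23H V3 and 5149 in P23H V2, and 5 of the 14 were higher in WT V3 than in P23H V3. The 10 rod markers summed to 2690.1, 571 and 1289 CPM in that order, the 10 cone markers to 6385, 3216 and 3060.5 CPM, and the 6 markers of newly formed rods to 7294, 7448 and 12529 CPM. The sums of rod and cone markers were thus lower in the RPCs of both P23H libraries. The 8 Müller glia markers summed to 322, 369 and 2599 CPM. The part of these differences in the values of the factors was not tested. Of 40 other retinal transcription factors, 2 of 21 with enough UMIs were called higher in P23H V3 RPCs, *mafba* and *insm1a*, and 10 lower, among them *ascl1a*, *sox2*, *pax6a* and *pax6b*, genes of multipotent retinal progenitors, beside the 8% and 8.68% of all genes given above. Of 12 rod genes of phototransduction and disks, 0 of 9 with enough UMIs were called higher in RPCs and 5 lower. Most of these rod genes, and *insm1a* among the factors, were also markers that named cell classes. Cells with a UMI of *neurod1* made up 50.6% of RPCs in WT V3 and 93.5% in P23H V3, with medians of 5411 and 6675 UMIs per cell. After thinning every cell to 500 UMIs the shares were 26.1% and 63.9%, against 2.9% and 4.11% in blood and immune cells, which should lack the gene and had medians of 1442 and 1130 UMIs per cell. Thinned shares for *nrl* in RPCs were 0.678% and 1.46%, against 0.184% and 0.064% in blood and immune cells. In P23H V3 RPCs, 51 cells held an *nrl* UMI, of which 45 also held *crx* and all also held *neurod1*. Of all 398 cells, 308 held *crx* and 372 *neurod1*, and independent detection would give 39.5 cells with both *nrl* and *crx*.

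In NPCs of the V3 libraries, *neurod1* had 339 CPM in WT V3 and 678 CPM in P23H V3 (log2 ratio 1.00, 95% interval 0.74 to 1.27). The cone factor *six7* had 21 and 101 UMIs, 43.1 and 172 CPM (log2 ratio 2.00, 95% interval 1.31 to 2.75). *thrb* had 5 and 25 UMIs, 10.3 and 42.6 CPM (log2 ratio 2.05, 95% interval 0.64 to 3.80). All 3 were called higher, of 8 factors with enough UMIs, and 0 lower, beside 5.18% and 7.39% of 5754 genes. With each cell assigned by its own markers *six7* and *thrb* lay the other way in NPCs, with log2 ratios of -1.15 and -0.47 that were not called. NPCs also held cone markers, which summed to 12139 CPM in WT V3 and 10750 CPM in P23H V3, and rod markers, at 15081 and 2184 CPM. The part of these transcripts in the levels of *six7* and *thrb* was not tested.

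Newly formed rods had high levels of the precursor factors in every library. *neurod1* had 2702 CPM in WT V3, 2506 in P23H V3 and 3209 in P23H V2 (log2 ratio -0.11, 95% interval -0.20 to -0.02). *crx* had 617, 822 and 1020.2 CPM (log2 ratio 0.41, 95% interval 0.23 to 0.61), and *otx5* had 293, 331 and 291 CPM (0.17, 95% interval -0.10 to 0.46). None of these passed the rule. *nrl* had 19 UMIs (42.5 CPM, 25.6 to 66.4) in WT V3 and 125 UMIs (74.2 CPM, 61.8 to 88.4) in P23H V3, and its log2 ratio of 0.80 (95% interval 0.10 to 1.58) was not called either. The share of newly formed rods with an *nrl* UMI was 11.6% in WT V3 and 19% in P23H V3, and after thinning to 500 UMIs 2.54% and 3.57%.

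The factors of cones set newly formed rods of WT V3 apart. *six7* had 225 UMIs in WT V3 (503 CPM, 439.6 to 573), 6 in P23H V3 (3.56 CPM, 1.31 to 7.75) and 19 in P23H V2 (100.4 CPM). The log2 ratio was -7.14 (95% interval -8.60 to -6.00). *foxq2* had 59, 2 and 2 UMIs (132, 1.19 and 10.6 CPM), a log2 ratio of -6.80 (95% interval -9.87 to -4.88). *thrb* had 28, 8 and 2 UMIs (62.6, 4.75 and 10.6 CPM), a log2 ratio of -3.72 (95% interval -5.06 to -2.55). *tbx2b* had 17, 11 and 2 UMIs (38, 6.53 and 10.6 CPM), a log2 ratio of -2.54 (95% interval -3.78 to -1.36). So 4 of 9 factors were called lower in P23H V3 and 0 higher, beside 8.32% and 10.3% of 6767 genes, whose median log2 ratio was 0.18. With P23H V2 in place of P23H V3, *six7*, *foxq2* and *thrb* were again called lower, with a log2 ratio of -2.32 for *six7*, and *tbx2b* was not.

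Within the 146 newly formed rods of WT V3, 39 held a *six7* UMI, a split chosen after these values had been seen. The split itself set the *six7* level of those cells, 1418 CPM. In them *thrb* was at 164 CPM against 6.93 in the other 107 cells. *foxq2* was at 289.8 against 45.1 CPM, and *neurod1* was at 2728 against 2687 CPM. *arl13a*, a marker used to name the class, was at 624 against 1740.4 CPM, *nrl* at 25.2 against 52 CPM, and the rod transducin gene *gnat1* at 2287 against 2957 CPM. The cone arrestin gene *arr3a* was at 1966 against 662 CPM. Both *six7* and *thrb* were found in 14 cells, where independent detection would give 4.27, and both *six7* and *foxq2* in 11, where it would give 4.01, counts that cells of greater depth also raise (medians 3117 and 2531 UMIs per cell). After thinning to 500 UMIs, 13.8% of WT V3 newly formed rods held *six7*, against 1.55% of blood and immune cells, and 0.167% against 0.443% in P23H V3. The 10 cone markers summed to 9730.3 CPM in newly formed rods of WT V3 and 5373 CPM in P23H V3, with 9 of 10 higher in WT V3 and none at 0. In blood and immune cells of WT V3 *foxq2* was at 7.31 CPM and *thrb* at 8.53 CPM, below their levels in these newly formed rods. Of the WT V3 cells, 1 of the class had an excess of cone markers over their average share in the whole library. Without that cell *six7* was at 510.0 CPM. The average includes the cones themselves, so cells with fewer cone transcripts than it are not marked. This count therefore cannot say how many cells of the class were cone-like.

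In rods, *crx* had 388 CPM in WT V3, 508 in P23H V3 and 1298 in P23H V2 (log2 ratio 0.39, 95% interval 0.20 to 0.58). *neurod1* had 391, 589 and 2264 CPM (log2 ratio 0.59, 95% interval 0.41 to 0.77), and *otx5* had 84.2, 133 and 187 CPM (log2 ratio 0.66, 95% interval 0.26 to 1.05). The P23H V2 values are not those of mature rods alone. Of its rods, 293 came from a cluster whose top genes lacked *rho* and *gnat1*, and 173 from a cluster whose top genes held both. The class was also high in markers of newly formed rods, as given below. *neurod1* and *otx5* were called higher, 2 of 6 factors with enough UMIs, and 0 were called lower, beside 18.8% and 6.07% of 6470 genes. The median log2 ratio of all genes in rods was 0.27, and relative to it *neurod1* was at 0.32 and *otx5* at 0.38, where neither was called. *nrl* had 45 UMIs (36.1 CPM, 26.3 to 48.3) in WT V3 and 15 (17.8 CPM, 9.94 to 29.3) in P23H V3, a log2 ratio of -1.02 (95% interval -1.97 to -0.15) that was not called, but was called lower relative to the median. *nr2e3* had 3, 4 and 5 UMIs, so that no difference was detectable at this depth. The cone factors *six7* (37 and 12 UMIs in WT V3 and P23H V3) and *six6b* (43 and 22 UMIs) were not called in rods, and *foxq2*, *tbx2b* and *thrb* had under 20 UMIs over both libraries there. With the mixed cluster counted with the rods, *six7*, *six6b*, *foxq2* and *thrb* were called lower.

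The P23H libraries differed from each other in the rod factors. P23H V2 held 1 UMI of *nrl*, where the P23H V3 level over all cells would give 19.1, and 23 of *nr2e3*, where it would give 5.76. In newly formed rods and rods of P23H V2 no *nrl* UMI was counted, and a count of 0 allows up to 15.9 and 11.5 CPM. In rods of P23H V2 the markers of newly formed rods summed to 13000 CPM, against 688 and 1109.9 CPM in rods of WT V3 and P23H V3, and the 10 rod markers to 30024 against 306900 and 183830 CPM. P23H V2 was clustered by itself, and chemistry, fish and clustering cannot be told apart in these values.

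**Figure D3:**
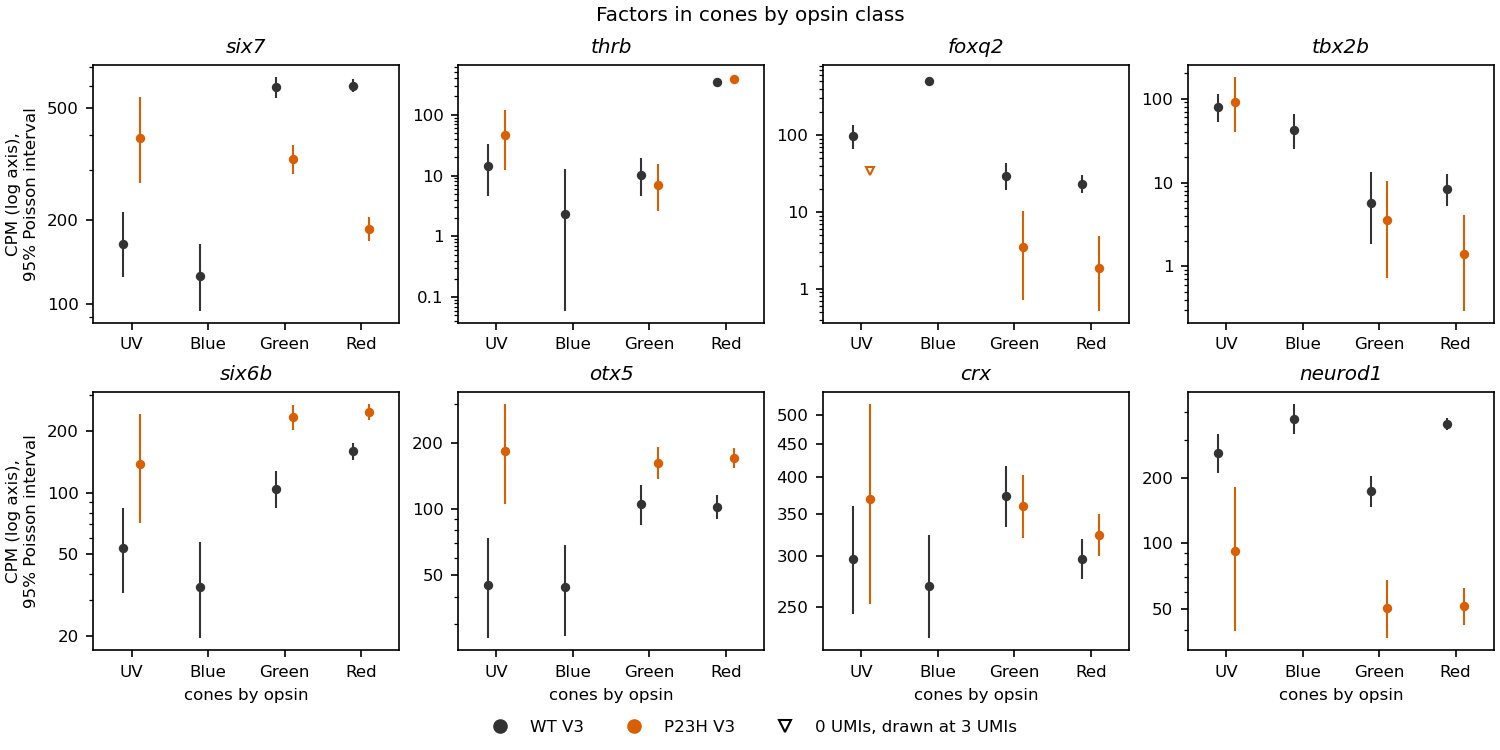
Level of 8 factors (CPM, log axis, with exact 95% Poisson intervals) in UV, blue, green and red cones of WT V3 and P23H V3, with classes under 20 cells left out and an open triangle at the level of 3 UMIs where none was counted. *thrb* was at 339.7 CPM in red cones of WT V3 and 390.4 CPM in those of P23H V3, and *neurod1* at 355 and 51.5 CPM.

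Cones were divided by their opsin UMIs into UV (129, 31 and 32 cells in WT V3, P23H V3 and P23H V2), blue (54, 3 and 0), green (267, 238 and 82) and red (648, 415 and 99) cones, and 651, 474 and 227 cones stayed unresolved. The count of 0 blue cones among 440 in P23H V2 allows a share of cones named blue of up to 0.835%. The blue opsin gene *opn1sw2*, which sets the class, had 1 UMI in that whole library. Blue cones could thus hardly be named there, and the count does not bound their true share. *thrb* followed the red opsin in both V3 libraries, with 339.7 CPM (317 to 363) in red and 10.2 (4.65 to 19.3) in green cones of WT V3, and 390.4 (364 to 418) and 7.06 (2.59 to 15.4) in P23H V3. *tbx2b* was highest in UV cones, with 79.3 CPM (52.7 to 115) in WT V3 and 92.1 (39.8 to 181) in P23H V3, and 41.9 CPM (24.8 to 66.1) in blue cones of WT V3, whose interval overlapped that of UV cones. Among the opsin classes *foxq2* was highest in blue cones of WT V3, with 499.9 CPM (435 to 571) in 54 cells. The 651 unresolved cones of WT V3 do not enter this ranking. Cones with more *arr3b* than *arr3a* UMIs, 696 cells described below, held 82.5% of all *foxq2* UMIs of WT V3. The 3 blue cones of P23H V3 held 8 *foxq2* UMIs among 15828 UMIs in all, so a lower level within blue cones is not shown. *six7* was highest in red (602 CPM) and green cones (593 CPM) of WT V3, which did not differ beyond counting error, and lower in UV (164 CPM) and blue cones (126 CPM). In P23H V3 *six7* had 391 CPM (271 to 547) in UV, 328 (291 to 369) in green and 185 (167 to 205) in red cones. The UV and green levels did not differ beyond counting error, and the red level was below both. *crx* varied little among cone classes, from 269.7 CPM in blue to 373 CPM in green cones of WT V3. *nrl* and *nr2e3* had 6 and 1 UMIs in all 1749 cones of WT V3.

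Between the V3 libraries, *neurod1* was lower in every opsin class of P23H V3 with enough UMIs. In red cones it had 355 CPM (332 to 379) in WT V3 and 51.5 (42.3 to 62.1) in P23H V3, a log2 ratio of -2.78 (95% interval -3.08 to -2.50), and in P23H V2 114 CPM. In green cones the levels were 174, 50.6 and 103 CPM (log2 ratio -1.78, 95% interval -2.30 to -1.29), and in UV cones 261, 92.1 and 372 CPM (log2 ratio -1.50, 95% interval -2.75 to -0.46), where P23H V2 lay above WT V3. In blood and immune cells *neurod1* was at 36.6 CPM in WT V3 and 65.6 CPM in P23H V3, so that the levels in green and red cones of P23H V3 were no higher than in cells that should lack it. After thinning to 500 UMIs, 12.2% of red cones held a *neurod1* UMI in WT V3 and 2.6% in P23H V3, against 2.9% and 4.11% of blood and immune cells. The unthinned shares in red cones were 34.3% and 14.7%, at medians of 2344 and 5513 UMIs per cell.

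*six6b* and *otx5* were higher in green and red cones of P23H V3. *six6b* had 104, 233 and 293 CPM in green cones of WT V3, P23H V3 and P23H V2 (log2 ratio 1.16, 95% interval 0.80 to 1.54) and 159, 248 and 279 CPM in red cones (0.64, 95% interval 0.45 to 0.83). *otx5* had 105, 162 and 155 CPM in green cones (0.63, 95% interval 0.24 to 1.02) and 102, 170.2 and 241 CPM in red cones (0.74, 95% interval 0.50 to 0.97). For both genes and both classes the P23H libraries lay above WT V3. *six7* was lower in green (log2 ratio -0.85, 95% interval -1.07 to -0.64) and red cones (-1.70, 95% interval -1.86 to -1.54) of P23H V3, but P23H V2 had 1514 and 1422 CPM there, above WT V3, with log2 ratios of 1.35 and 1.24. In UV cones *six7* was higher in P23H V3 (1.25, 95% interval 0.60 to 1.89), with 34 UMIs in 31 cells. *thrb* in red cones had a log2 ratio of 0.20 (95% interval 0.06 to 0.34), below the size of the rule, and P23H V2 had 139.6 CPM. *foxq2* had 23.5 and 1.89 CPM in red cones, 29.4 and 3.53 in green cones and 96.3 CPM and 0 UMIs in UV cones of WT V3 and P23H V3, beside 7.31 and 2.11 CPM in blood and immune cells. At the floor of 3 UMIs for the class, *foxq2* in UV cones was at least 2.79-fold lower in P23H V3.

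**Figure D4:**
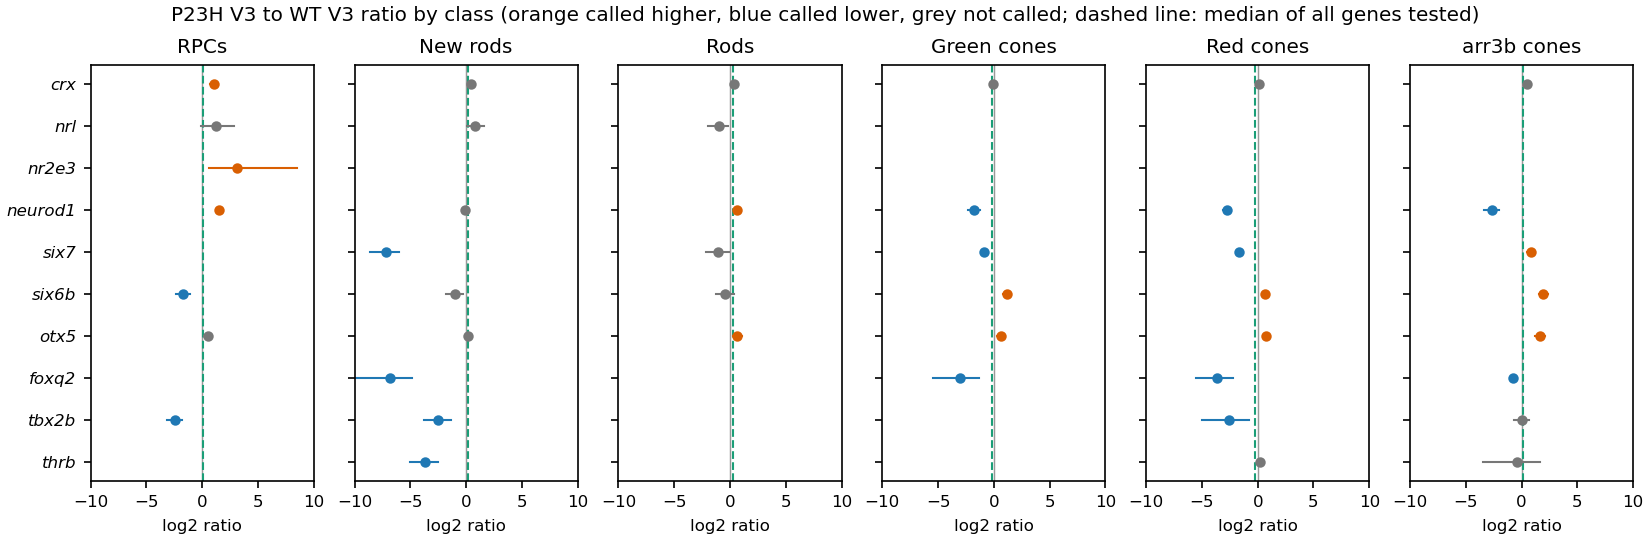
Log2 ratio of P23H V3 to WT V3 for each factor in 6 classes, with exact 95% intervals, for factors with at least 20 UMIs over both libraries. Orange points were called higher, blue points lower and grey points neither, and the dashed line is the median of all genes tested in the class, which lay between -0.25 in red cones and 0.27 in rods.

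By opsin class, 2 of 6 factors were called higher and 3 lower in green cones, beside 8.19% and 12% of 5031 genes, whose median log2 ratio was -0.14. In red cones the counts were 2 and 4 of 8, *neurod1*, *six7*, *foxq2* and *tbx2b* being lower, beside 7.99% and 18% of 7570 genes with a median of -0.25. In UV cones they were 2 (*six7* and *otx5*) and 2 (*neurod1* and *foxq2*) of 7, beside 8.03% and 6.31% of 2043 genes. Over all cones 3 of 8 factors, *six6b* (log2 ratio 1.31), *otx5* (1.15) and *thrb* (0.97), were called higher and 3, *neurod1* (-2.37), *tbx2b* (-2.41) and *foxq2* (-3.39), lower, beside 13.8% and 17.7% of 10075 genes. The *tbx2b* level in red cones, 21 and 3 UMIs, was near that of blood and immune cells (8.37 against 6.7 CPM in WT V3). Transcripts of other classes in cones also differed. Over all cones the 10 rod markers summed to 6382 CPM in WT V3 and 1201 CPM in P23H V3, with 9 of 10 higher in WT V3 and 1 at 0 in both. By opsin they summed to 5926.9 and 920.4 CPM in green cones and 6452.7 and 701.9 CPM in red cones. UV cones went the other way, with 6848.5 and 9451.8 CPM. The 9 bipolar markers summed to 951 and 1958 CPM over all cones. They were higher in P23H V3 in UV (733.6 and 3419.2 CPM) and green cones (912.9 and 1593.7 CPM) and lower in red cones (1261 and 1028.9 CPM). Their part in the ratios was not tested.

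**Figure D5:**
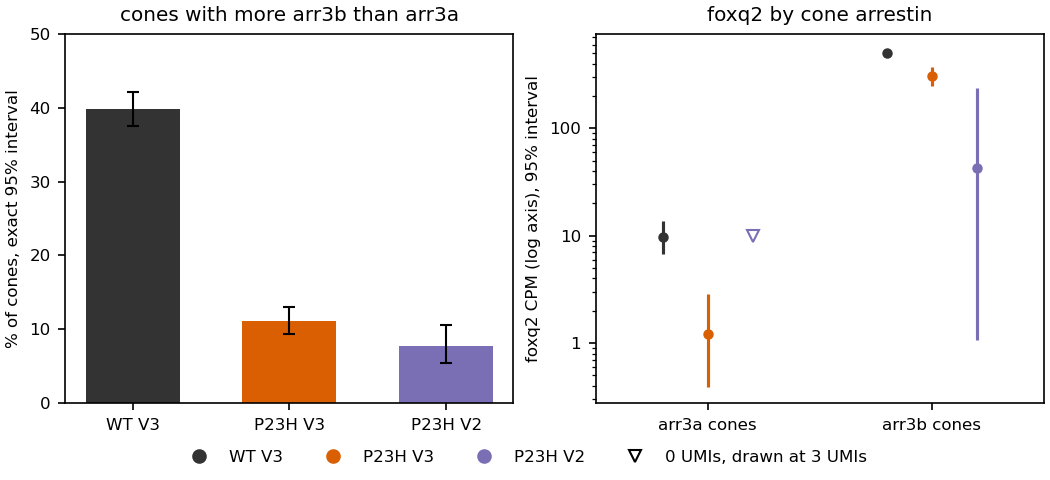
Left, cones with more *arr3b* than *arr3a* UMIs as a percentage of all cones in each library, with exact 95% binomial intervals. Right, level of *foxq2* (CPM, log axis, with exact 95% Poisson intervals) in cones with more of either arrestin gene, with an open triangle at the level of 3 UMIs where none was counted: 504 CPM in *arr3b* cones of WT V3 and 305 CPM in those of P23H V3.

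Many cones stayed without an opsin class, so cones were also divided by their arrestin genes, a split chosen after the data had been seen. The arrestin genes *arr3b* and *arr3a* are known from blue and UV cones and from red and green cones. Cones with more *arr3b* made up 39.8% of 1749 cones in WT V3 (696 cells, exact 95% binomial interval 37.5 to 42.1%), 11.1% of 1161 in P23H V3 (129 cells, 9.36 to 13.1%) and 7.73% of 440 in P23H V2 (34 cells, 5.41 to 10.6%). Both P23H libraries were thus below WT V3. This split compared raw UMIs, with no background taken off. *arr3a* was called higher in P23H V3 over all cells and in RPCs, horizontal cells, Müller glia, RPE and oligodendrocytes. It was also called higher in all cones and in UV, green and red cones. It was not called higher in blood or immune cells and was called lower in newly formed rods. *arr3b* was called higher in UV cones and lower in all cones, red cones and unresolved cones. It was also called lower over all cells and in RPCs, NPCs, newly formed rods and rods. Bipolar, amacrine, horizontal and erythroid cells, oligodendrocytes and microglia also had it called lower. In retinal ganglion cells, Müller glia, RPE and T lymphocytes it was not called. More *arr3a* or fewer *arr3b* UMIs in a cone move it out of the *arr3b* class. The part of either in the shares was not tested. By opsin, UV cones made up 7.38% of cones in WT V3 (6.19 to 8.7%), 2.67% in P23H V3 (1.82 to 3.77%) and 7.27% in P23H V2 (5.03 to 10.1%), so that the UV share of P23H V2 was not below that of WT V3. Cones with more *arr3b* held 82.5% of all *foxq2* UMIs of WT V3 and 63.4% of those of P23H V3. Within them *foxq2* had 1715 UMIs (504 CPM, 480.4 to 528) in WT V3, 104 (305 CPM, 249 to 369) in P23H V3 and 1 in P23H V2, a log2 ratio of -0.73 (95% interval -1.03 to -0.44) between the V3 libraries, against -3.62 over all cells. In *arr3a* cones *foxq2* had 9.79 and 1.22 CPM, near the 7.31 and 2.11 CPM of blood and immune cells. *tbx2b* in *arr3b* cones was at 64.1 CPM (55.8 to 73.2) in WT V3 and 64.5 (40.4 to 97.6) in P23H V3, a log2 ratio of 0.01 (95% interval -0.69 to 0.64), where that over all cones was -2.41. *thrb* in *arr3a* cones was at 261 and 286 CPM (0.13, 95% interval 0.00 to 0.26), where that over all cones was 0.97.

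*six7* differed in direction between these classes. In *arr3a* cones it had 618 CPM in WT V3, 284 in P23H V3 and 1508 in P23H V2 (log2 ratio -1.12, 95% interval -1.22 to -1.02). In *arr3b* cones it had 135, 246 and 638 CPM (log2 ratio 0.86, 95% interval 0.51 to 1.2). *six6b* and *otx5* were higher in both, with log2 ratios of 0.80 and 1.93 for *six6b* and 0.73 and 1.63 for *otx5*. *neurod1* was lower in both, at -2.25 and -2.67, though 425 CPM in the 34 *arr3b* cones of P23H V2 was not below the 355 CPM of WT V3. In all, 2 of 8 factors were called higher and 3 lower in *arr3a* cones, beside 9.45% and 17.6% of 8983 genes with a median of -0.17, and 3 of 8 and 2 in *arr3b* cones, beside 12.9% and 5.55% of 6826 genes with a median of 0.15. The 9 bipolar markers summed to 695 CPM in *arr3b* cones of WT V3 and 3696 CPM in those of P23H V3, and bipolar cells held *six6b* at 139 and 152 CPM and *otx5* at 175 and 125 CPM. The part of such transcripts in these ratios was not tested.

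Cone factors were found together or apart in single cones. In the 1749 cones of WT V3, *six7* and *thrb* were both found in 298 cells, where independent detection would give 196. *foxq2* and *thrb* were both found in 22, where it would give 121, and *tbx2b* and *thrb* in 13, where it would give 38.5. In the 1161 cones of P23H V3, *six7* and *thrb* were both found in 257 cells, against 226. Thus *thrb* seldom shared a cell with the factors of blue and UV cones, while cells of greater depth raise every count of shared detection.

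The related retinal transcription factors and rod and cone genes, most of them of phototransduction, were counted as lists. Most of the rod and cone genes, and *insm1a*, *foxn4*, *atoh7*, *hes6* and *vsx1* among the factors, were also markers that named cell classes. Their counts are thus not independent of the classes. By the same rule, 10.3% of all genes were called higher and 8.32% lower in newly formed rods (median log2 ratio 0.18), 18.8% and 6.07% in rods (0.27) and 13.8% and 17.7% in cones (-0.07). Of 40 other retinal factors, 2 of 20 with enough UMIs were called higher and 6 lower in newly formed rods of P23H V3 (median log2 ratio -0.24, against 0.18 for all genes), 3 and 3 of 20 in rods (0.03, against 0.27), and 5 and 9 of 24 in cones (0.28, against -0.07). The largest ratios were those of *rx2*, a retinal homeobox gene, in cones (50.9 against 2.68 CPM, log2 ratio -4.25), *mef2d* in cones (26 against 1 UMI, -4.08, 95% interval -9.44 to -1.48) and *rxrga*, a retinoid X receptor gene of red cones, in newly formed rods (42.5 against 2.97 CPM, -3.84). *rxrga* thus lay with *thrb*, *six7* and *foxq2* among the genes lower in newly formed rods of P23H V3. Of 12 rod genes, with the disk genes *rom1a* and *rom1b* among them, 11 had enough UMIs in each of these classes. In rods of P23H V3, 4 were called higher and 5 lower (median -0.07). The counts were 1 and 6 in newly formed rods (-0.69) and 0 and 9 in cones (-1.77). The largest ratios were those of *gnat1* (924 against 85.2 CPM, -3.44) and *cnga1*, a rod channel gene (98.1 against 9.59 CPM, -3.36), in cones, and *cngb1a*, of the same channel (44.7 against 4.75 CPM, -3.24), in newly formed rods. Of 13 cone phototransduction genes, 12 were in the files, and 5 were called higher and 6 lower in cones (-0.50), 0 and 8 of 10 in newly formed rods (-0.93) and 1 and 6 of 10 in rods (-1.05). The largest ratios were those of *cngb3.1*, a cone channel gene, in cones (500 against 1 UMI, -8.35, 95% interval -13.65 to -5.86), and *cnga3a* (-2.64) and *gnb3b* (-2.56) in newly formed rods.

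The genes with the pattern most like that of each factor were taken by Pearson's correlation of log2(CPM + 10) over the 19 classes of WT V3, with 13687 genes of 50 UMIs or more compared, and the same pair was computed over 18 classes of P23H V3. Blue cones, with 3 cells in P23H V3, were left out there, so the sets of classes were not the same. The classes share a library, differ in depth and include cell types with neither gene, so the values are descriptions. For *nrl* the 3 closest genes included *ccdc80l1* (r 0.91 in WT V3 and 0.65 in P23H V3) and *aipl1* (0.90 and 0.74). *nr2e3* had 12 UMIs in WT V3, too few for a ranking, and no genes are given for it. The 3 genes closest to *crx* were *LOC110437758* (0.96 and 0.87), *zmp:0000000545* (0.95 and 0.77) and *fkbp16* (0.95 and 0.94), and *crx* and *otx5* had r 0.71 and 0.93 with each other. For *neurod1* they were *LOC103909376* (0.90 and 0.87), *tmem231* (0.89 and 0.67) and *LOC110437758* (0.89 and 0.36), and r with *crx* was 0.85 and 0.51. For *six7* they were *si:ch211-81a5.8* (0.95 and 0.91), the cone transducin gene *gngt2a* (0.93 and 0.91) and *plekhg5a* (0.92 and 0.94). Those of *thrb* were *glis3* (0.87 and -0.01) and the red opsin genes *opn1lw1* (0.84 and 0.86) and *opn1lw2* (0.83 and 0.83). The closest gene in WT V3 thus had no likeness in P23H V3. The red opsin genes set the red cone class in both libraries, so their likeness to *thrb* is not independent of the classes. Those of *six6b* were *fez1* (0.94 and 0.84), *LOC100536647* (0.93 and 0.63) and *si:ch211-133n4.4* (0.91 and 0.63). Those of *otx5* were *LOC100329833* (0.86 and 0.82), *LOC100536757* (0.86 and 0.49) and *pdzd2* (0.84 and 0.88). For *foxq2* and *tbx2b* every value was lower in P23H V3: *skor1a* (0.89 and 0.33), *arr3b* (0.86 and 0.40) and *hs3st3b1a* (0.86 and 0.02) for *foxq2*, and *mrpl9* (0.80 and 0.25), *mrgbp* (0.79 and 0.29) and *samd1a* (0.79 and 0.66) for *tbx2b*. Blue cones, where *foxq2* was highest among the opsin classes of WT V3, entered the WT V3 values alone. These values therefore do not compare like sets of classes.

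The *crx*, *nr2e3* and *tbx2b* symbols each had a second row with a suffix. For *crx* that row held the greater part of the UMIs, 3333 of 4803 in WT V3, 4225 of 5712 in P23H V3 and 945 of 1104 in P23H V2. For *nr2e3* it held 3 of 12, 12 of 69 and 14 of 23, and for *tbx2b* 1 UMI in WT V3 and 0 in both P23H libraries. The files do not say how the rows of a symbol differ, so the levels of *crx* and *nr2e3* rest on the sum.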

How the data were processed

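The authors aligned the reads of each library to zebrafish GRCz11 with Cell Ranger 3.1.2.0 and deposited UMI counts of each gene in each cell barcode, whole numbers with no normalization (13966, 15585 and 7956 barcodes in WT V3, P23H V3 and P23H V2). Their notes also name FastQC 0.11.9, R 3.6.1 and Seurat 3.1.1. The paper gives other ages than the labels. WT retina run with V2 was not analysed here. The 10 factors and all gene lists were chosen with earlier results of these data known.

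The 47048 feature rows were summed to 30579 symbols. Barcodes with fewer than 200 genes, with over 4700 (P23H) or 6000 (WT) genes, or with over 10% mitochondrial UMIs were dropped. The V3 libraries were integrated and P23H V2 clustered by itself in Seurat 5.3.0 under R 4.3.3 (10000 UMIs per cell, 2000 variable genes without the 10 factors, 20 principal components, Louvain resolution 0.8, seed 1). A cluster was named where at least 3 markers and 40% of a list were at least 2 times the level of other cells (pseudocount 10 CPM) in at least 5% of its cells. A cone was given an opsin class with an excess of at least 3 opsin UMIs over background, of which 1 class held at least 60%, and an arrestin class with at least 3 *arr3a* and *arr3b* UMIs. Doublet calling with Scrublet (scanpy 1.11.5) marked only 2, 4 and 10 cells of WT V3, P23H V3 and P23H V2 and was taken to have failed, so no cell was removed by it. An alternative left out the 8% of cells that scored highest. UMIs were summed over the cells of a class and library. Intervals of levels are exact Poisson, of ratios exact conditional binomial and of shares Clopper-Pearson, all at 95% and for counting error only. A count of 0 was bounded at 3 UMIs of the class. With 1 library per group no test was made, and p-values are not given. The factors named are all 10, for each the 3 genes of most like pattern, and in each list the 3 largest ratios called in rods, newly formed rods or cones. Not every gene that this rule names is reported here. The calculation was checked on simulated counts. Alternatives were other filters, resolutions, clustering and class rules, TMM scaling with edgeR 4.0.16, other scalings and P23H V2. The minimum of 2000 UMIs per cell, leaving out shared barcodes, counting the mixed cluster with rods and the arrestin classes were added once the data had been seen. Python 3.11.15 was used with numpy 2.4.6, scipy 1.17.1, pandas 2.3.3 and matplotlib 3.10.9, and R with Matrix 1.6.5.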

Additional observations from a re-analysis of the deposited data

Results flagged for a closer look

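Log2 ratios of P23H V3 to WT V3 that were called in opposite directions in different cell classes are listed here, where the opsin and arrestin classes are parts of the cones. Each class had 1 library per condition, so these differences between classes were not tested. For *neurod1* the ratio was 1.49 in RPCs, 1.0 in NPCs and 0.59 in rods, and -2.37 in cones, where it was -1.5 in UV, -1.78 in green, -2.78 in red, -2.25 in *arr3a* and -2.67 in *arr3b* cones. For *six7* it was 2.0 in NPCs, 1.25 in UV cones and 0.86 in *arr3b* cones, and -7.14 in newly formed rods, -0.85 in green, -1.7 in red and -1.12 in *arr3a* cones. For *six6b* it was -1.72 in RPCs and 1.31 in cones, where it was 1.16 in green, 0.64 in red, 0.8 in *arr3a* and 1.93 in *arr3b* cones. For *thrb* it was 2.05 in NPCs and 0.97 in cones, and -3.72 in newly formed rods.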

How the results depend on the processing

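No paired analysis was possible because each group had 1 library. Over all alternatives, 1071 of 1203 log2 ratios of a factor in a class stayed within the interval of the reported ratio, without those where a count of 0 set no bound. Of 728 values of called ratios 9 reversed, and of 475 values of ratios that were not called 44 changed sign, 11 of them with P23H V2. P23H V2 differs from WT V3 in chemistry as well as genotype. With P23H V2 in place of P23H V3 the called ratio reversed for *thrb* in cones (-0.55), *six7* in green (1.35), red (1.24) and *arr3a* cones (1.29) and *neurod1* in UV (0.51) and *arr3b* cones (0.26). It also reversed for *six7* (-1.15) and *thrb* (-0.47) in NPCs with each cell assigned by its markers, and for *tbx2b* in red cones with the background subtracted (0.25). Of the counts of factors called, 282 of 324 stayed within 1.5 times. In rods, the 2 factors called higher became 1 at resolutions of 0.4 and 1.2 (*otx5*) and 0 with at least 500 genes or 2000 UMIs per cell, no integration, without the 20 most abundant genes, with TMM scaling and relative to the median ratio. Where none was called lower in rods, 5 were without integration, 4 with each cell assigned by its markers or with the mixed cluster counted with the rods (*six7*, *six6b*, *foxq2* and *thrb*), 2 without the 20 most abundant genes, with TMM scaling and relative to the median (*nrl* and *six7*), and 1 with P23H V2 (*nrl*). In RPCs, 4 were called lower at a resolution of 0.4 and 1 (*tbx2b*) with the background subtracted or with P23H V2, and 1 (*neurod1*) was called higher with rows without a suffix alone. In newly formed rods, 3 were called higher without integration or with each cell assigned by its markers, and 1 (*crx*) with P23H V2. The causes were not tested. In UV cones no factor was called lower with P23H V2, and 1 of 2 was without integration, with the factors kept in the clustering, with each cell assigned by its markers or at an opsin threshold of 80%. Values could not be computed for RPCs and NPCs without integration, for NPCs with P23H V2, and for UV cones with 2000 UMIs per cell or without the highest doublet scores, for want of 20 cells in a library. Without integration WT V3 formed no RPC or NPC class, and its newly formed rods numbered 478. P23H V3 formed both by itself, with 399 RPCs and 656 NPCs. The RPC and NPC classes of WT V3 thus rest on the integration with P23H V3. Depth limits *nrl* and *nr2e3* most, and P23H V2 throughout.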
